A study of Mus musculus with 11 samples.

Results

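Lipid supply was followed here through 47 named genes of cholesterol synthesis, fatty acid synthesis, their transcriptional control, triglyceride storage, lipid uptake and phospholipid synthesis. The genes were a given list, chosen with earlier results of these data known. Its counts and medians beside those of all genes are therefore descriptive. Where a gene had several probe sets, the brightest on average was read. Of the 47, 42 had a probe set and 37 were bright enough to test, among 14351 genes with a probe set and 8085 tested genes. The lungs came from Balb/c mice that were wild type or carried the genotype 4ebp1-/-/4ebp2-/-, which removes Eif4ebp1 and Eif4ebp2, the genes of a pair of repressors that bind the cap-binding factor eIF4E. Total RNA was hybridised on 3 arrays of each genotype. Polysomal RNA, pooled from gradient fractions 7 to 10 of 10 with 3 or more ribosomes on a transcript, was hybridised on 2 wild-type and 3 knockout arrays. Mice of both genotypes were put on the AIN-93M purified diet at 5 weeks of age, and their age at the end is not in the labels. Per the labels' protocols the wild-type mice were bought from a breeder and the knockout mice came from another laboratory, so genotype and source of the mice cannot be told apart. Nothing in the labels ties an array to a separate mouse, so the p-values speak only to the spread from array to array, which may be technical.

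Cholesterol and fatty acids are both built from cytosolic acetyl-CoA. The enzymes of both routes are switched on by the SREBP transcription factors, which Scap carries from the endoplasmic reticulum for cleavage and which the Insig proteins hold back when sterols are plentiful. In lung, alveolar type 2 cells use fatty acids and choline to make the phosphatidylcholine of surfactant, and lipofibroblasts and macrophages hold lipid droplets. On messages, 4E-BP proteins act at the cap, so total RNA and polysomal RNA can move apart. Values are log2 GCRMA values per array, differences are knockout minus wild type unless another direction is given, and every p-value printed is a Benjamini-Hochberg adjusted p from limma over 13802 tested probe sets.

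In total RNA 8 of the 37 tested members rose in knockout lung (Pcyt1a, Fasn, Plin3, Elovl1, Fads1, Sqle, Plin2 and Lpcat1) and none fell. Over all 8085 tested genes 17.2% were higher and 5.97% lower in this comparison. The members' median difference was 0.24 log2, against 0.09 over all tested genes. By role the calls were 1 of 11 sterol genes, 3 of 8 fatty acid genes, 2 of 5 droplet genes and 2 of 4 phospholipid genes. At an unadjusted p under 0.05, 15 members were higher and 1 was lower. The shares over all tested genes given here are for adjusted p, so these counts have no all-gene background at the unadjusted threshold. The count of 8 was 5 without replicate 2 of knockout total RNA.

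In polysomal RNA, by contrast, 1 member rose (Hmgcs1) and 1 fell (Srebf1), where 8.36% of all tested genes were higher and 6.77% lower. The median of the members was 0.00 and that of all tested genes -0.01. Without replicate 1 of knockout polysomal RNA, 3 members passed as higher and none as lower. Without replicate 2 or 3 of wild-type total RNA, 2 passed as lower. The difference between the polysomal and the total RNA change, the interaction, was positive for Hmgcs1 and negative for 9 members (Pcyt1a, Plin3, Dgat1, Fads1, Plin2, Elovl1, Dhcr7, Scap and Srebf1), against 8.06% and 14.2% of all tested genes. The median interaction was -0.35 for the members and -0.13 for all genes. The negative count ran from 2 to 9 when 1 array was left out, with the lowest count without replicate 2 of wild-type polysomal RNA. The interaction uses the arrays of both genotype comparisons, so it is no independent result.

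**Figure D1:**
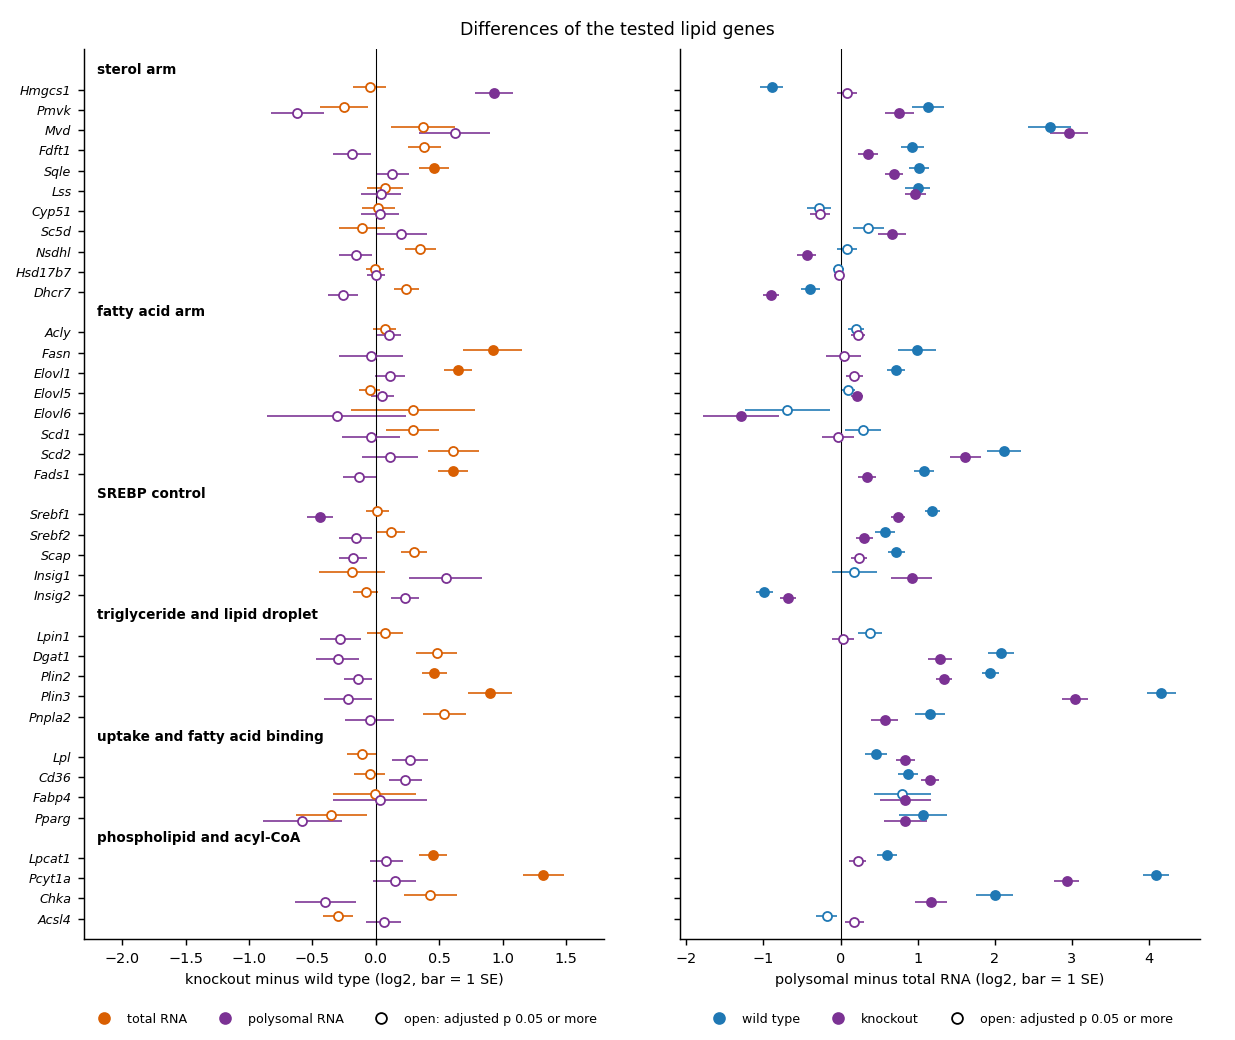
Log2 differences of the 37 tested lipid genes by role, with 1 standard error: on the left knockout minus wild type in total and in polysomal RNA, on the right polysomal minus total RNA in each genotype. Filled points passed an adjusted p of 0.05; on the left 8 total RNA points are filled, all to the right of 0, and 2 polysomal points, Hmgcs1 and Srebf1.

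The sterol arm held 14 members from Hmgcs1 to Dhcr7. Probe sets were found for 12 of them, and Idi1 and Fdps had none here. Mvk, mevalonate kinase, stayed at 4.16 to 4.42 on the 11 arrays and was not tested. Of the 11 tested genes 1 passed as higher in total RNA, with a median difference of 0.07, and 1 in polysomal RNA, with a median of 0.03. Both medians lay near the all-gene medians of 0.09 and -0.01.

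Hmgcs1, the cytosolic HMG-CoA synthase at the entry of the mevalonate pathway, was level in total RNA and apart in polysomal RNA. It read 13.35, 13.12 and 13.23 on the wild-type total arrays and 12.99, 13.12 and 13.44 on the knockout total arrays. On polysomal arrays it read 12.35 and 12.33 in wild type and 13.24, 13.44 and 13.11 in knockout. The total RNA values overlapped, whereas all knockout polysomal values lay above both wild-type ones. In total RNA the difference was -0.05 (SE 0.13, n = 3 and 3, adjusted p = 0.82). In polysomal RNA Hmgcs1 rose by 0.93 (SE 0.15, n = 2 and 3, adjusted p = 0.0043), a 1.90-fold difference. The interaction of 0.98 (SE 0.20, adjusted p = 0.011) passed with each array left out in turn, at 0.88 to 1.11. Within wild type Hmgcs1 was lower in polysomal than in total RNA by a difference of -0.89 (SE 0.15, adjusted p = 3.7e-04), and within knockout the difference was 0.08 (SE 0.13, adjusted p = 0.61). Arrays with the same replicate set letter gave polysomal knockout differences of 1.10 for letter B and 0.78 for letter C. Each is 1 knockout array against 1 wild-type array, and letter A had no wild-type polysomal array.

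Sqle, squalene epoxidase, is a rate-controlling enzyme of the later sterol steps. Its total RNA values were 10.29, 10.14 and 9.95 in wild type and 10.40, 10.67 and 10.69 in knockout. Its polysomal values were 11.20 and 11.09 in wild type and 11.22, 11.38 and 11.22 in knockout. The genotypes did not overlap in either RNA kind, though the lowest knockout and highest wild-type polysomal values nearly met. Sqle rose by 0.46 in total RNA (SE 0.12, n = 3 and 3, adjusted p = 0.021). The polysomal difference was 0.13 (SE 0.13, adjusted p = 0.57). The total RNA call was lost without replicate 2 of knockout total RNA (difference 0.41, adjusted p = 0.081) and without replicate 3 of it (0.41, adjusted p = 0.071). That call was also lost with the replicate set letter as a block, both within RNA kind and over both kinds.

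Dhcr7, the reductase of the last step to cholesterol, read 9.87, 9.87 and 10.10 in wild-type total RNA and 10.12, 10.13 and 10.32 in knockout total RNA. In polysomal RNA it read 9.51 and 9.60 in wild type and 9.19, 9.43 and 9.25 in knockout. The knockout values lay above wild type in total RNA and below it in polysomal RNA, without overlap. Neither difference passed alone, at 0.24 (SE 0.10, adjusted p = 0.12) and -0.26 (SE 0.12, adjusted p = 0.16). Their interaction was -0.51 (SE 0.16, adjusted p = 0.046). That call was lost in 9 of 11 fits with an array left out, where the value ran from -0.59 to -0.44 and the adjusted p from 0.021 to 0.13. Without replicate 3 of wild-type total RNA the total RNA difference was 0.32 (adjusted p = 0.048).

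The other 8 sterol genes passed no genotype test. Fdft1, squalene synthase, came closest in total RNA at 0.38 (SE 0.13, adjusted p = 0.061), followed by Nsdhl, which helps remove the C4 methyl groups of lanosterol, at 0.35 (SE 0.12, adjusted p = 0.063). Lss and Cyp51, which close and demethylate the sterol rings, differed by 0.07 (SE 0.14) and 0.02 (SE 0.13) in total RNA and by 0.04 (SE 0.16) and 0.03 (SE 0.15) in polysomal RNA. Sc5d, a late desaturase, differed by -0.11 (SE 0.18) and 0.20 (SE 0.20). Pmvk, phosphomevalonate kinase, had the most negative polysomal difference of the arm, -0.62 (SE 0.21, adjusted p = 0.072). Hsd17b7 read 6.04 to 6.08 on all 11 arrays, a range of 0.05, so its probe set told no samples apart. Mvd, mevalonate decarboxylase, passed the filter through the polysomal arrays alone, where it read 4.89 to 6.24. On the total RNA arrays it read 2.32 to 2.87, near the median of probe sets too dim to test (2.34 to 2.49 on those arrays), so the size of its polysomal excess is not well measured.

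Of the fatty acid arm's 10 members, 9 had a probe set, Acaca had none here, and 8 were tested. Fads2 read 2.47 to 3.11 on the 11 arrays and was not tested. In total RNA Fasn, Elovl1 and Fads1 rose and none fell, with a median difference of 0.45 over the 8 genes. Those that rose were 37.5% of the 8, against 17.2% of all tested genes, whose median was 0.09. In polysomal RNA none passed in limma, 0 of 8 had an unadjusted p under 0.05, and the median was 0.01. The polysomal differences ran from -0.31 for Elovl6 to 0.11 for Elovl1 and Scd2.

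Fasn, fatty acid synthase, makes palmitate. It read 11.43, 12.16 and 11.19 on the wild-type total arrays and 12.52, 12.49 and 12.52 on the knockout total arrays. In polysomal RNA it read 12.33 and 12.85 in wild type and 12.42, 12.52 and 12.69 in knockout. The wild-type total arrays were spread and lay below all others, while the polysomal groups overlapped. Fasn rose by 0.92 in total RNA (SE 0.23, n = 3 and 3, adjusted p = 0.018), a 1.89-fold difference, against -0.04 in polysomal RNA (SE 0.25, adjusted p = 0.94). The interaction of -0.96 (SE 0.34, adjusted p = 0.070) did not pass, and it passed at -1.24 (adjusted p = 0.0087) without replicate 2 of wild-type total RNA. The total RNA call was lost without replicate 1 (difference 0.91, adjusted p = 0.051) or 2 (0.93, adjusted p = 0.057) of knockout total RNA and without replicate 1 of wild-type total RNA (0.83, adjusted p = 0.068).

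Elovl1, the elongase of saturated very long chains, read 13.78, 13.89 and 13.91 in wild-type total RNA and 14.30, 14.57 and 14.68 in knockout total RNA. Polysomal values were 14.64 and 14.53 in wild type and 14.66, 14.81 and 14.62 in knockout. Only the total RNA groups stood clear of each other. Elovl1 rose by 0.65 in total RNA (SE 0.11, adjusted p = 0.0038), and its polysomal difference was 0.11 (SE 0.12, adjusted p = 0.60). Its interaction of -0.54 (SE 0.17, adjusted p = 0.043) was lost in 9 of 11 fits with an array left out (adjusted p 0.022 to 0.12) and fell to a value of -0.23 under quantile normalization (adjusted p = 0.30).

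Fads1, the delta-5 desaturase that completes arachidonate, read 11.15, 11.28 and 10.78 in wild-type total RNA and 11.65, 11.71 and 11.69 in knockout total RNA. Its polysomal values were 12.11 and 12.19 in wild type and 12.04, 12.02 and 12.00 in knockout. Knockout lay above wild type in total RNA and slightly below it in polysomal RNA. Fads1 rose by 0.61 in total RNA (SE 0.12, adjusted p = 0.0067). The polysomal difference was -0.13 (SE 0.13, adjusted p = 0.56) and the interaction -0.74 (SE 0.18, adjusted p = 0.019). Without replicate 2 of wild-type polysomal RNA the interaction was -0.70 (adjusted p = 0.061).

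Scd1, a stearoyl-CoA desaturase and a common SREBP target, passed no genotype test. It read 13.25, 13.84 and 13.07 in wild-type total RNA and 13.54, 13.73 and 13.76 in knockout total RNA. Polysomal values were 13.36 and 14.01 in wild type and 13.58, 13.69 and 13.67 in knockout. Both pairs of groups overlapped, with differences of 0.29 (SE 0.21, adjusted p = 0.35) and -0.04 (SE 0.23, adjusted p = 0.94). Scd2, its paralogue, read 10.42 to 11.09 in wild-type and 11.10 to 11.67 in knockout total RNA, a difference of 0.61 (SE 0.20) whose adjusted p of 0.051 missed the threshold. Within set letter A, with 2 wild-type arrays and 1 knockout array, the Scd2 difference was 0.07. Within letter B, with 1 wild-type array and 2 knockout arrays, it was 1.20. Acly, which makes cytosolic acetyl-CoA, and Elovl5, which elongates polyunsaturated chains, differed by 0.07 (SE 0.09) and -0.05 (SE 0.08) in total RNA. Elovl6, the elongase of palmitate, spread from 6.80 to 8.90 over the wild-type total arrays alone, and its difference of 0.29 had an SE of 0.49.

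**Figure D2:**
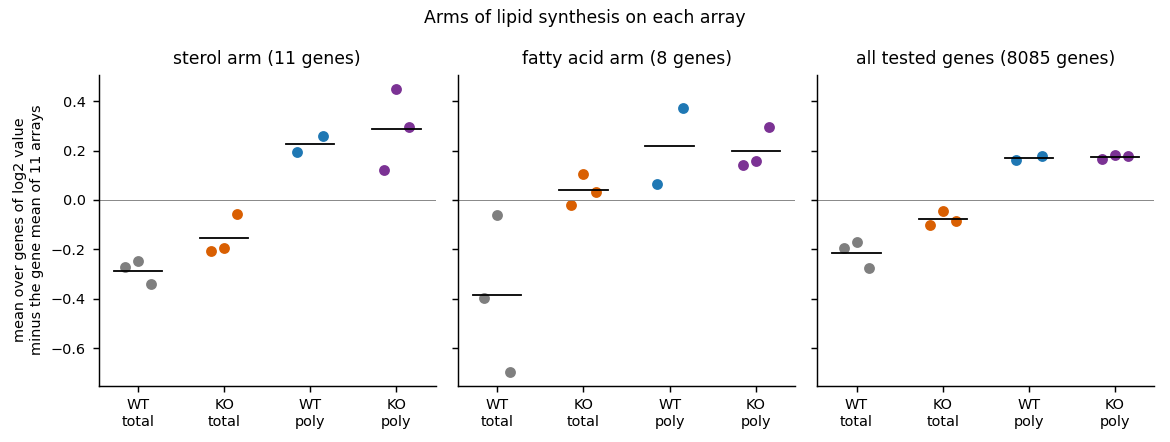
Mean over the tested genes of the sterol arm (11 genes), the fatty acid arm (8 genes) and all tested genes (8085) on each array, as log2 value minus each gene's mean over 11 arrays; points are arrays and lines are group means. The wild-type total arrays are lowest in all 3 panels and most spread in the fatty acid panel. The sterol panel includes Mvd, which passed the filter through the polysomal arrays alone.

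Both arms were followed over the 4 groups of arrays. The mean log2 value of the sterol genes was 8.82, 8.85 and 8.75 on the wild-type total arrays and 8.89, 8.90 and 9.04 on the knockout total arrays, then 9.29 and 9.35 in wild-type and 9.22, 9.55 and 9.39 in knockout polysomal RNA. The fatty acid genes stood at 11.98, 12.31 and 11.68 in wild-type total RNA and 12.35, 12.48 and 12.41 in knockout total RNA, then 12.44 and 12.75 in wild-type and 12.52, 12.53 and 12.67 in knockout polysomal RNA. In both arms the total RNA groups did not overlap and the polysomal groups did. The sterol mean includes Mvd, which passed the filter through the polysomal arrays alone. Mvd was higher in polysomal than in total RNA by 2.71 in wild type and 2.96 in knockout. The polysomal rise of the sterol mean thus rests in part on a gene admitted by its polysomal values. Over all tested genes the mean moved the same way, from 8.42 to 8.53 in wild-type total RNA to 8.60 to 8.65 in knockout total RNA, with 8.86 to 8.88 on the polysomal arrays. Replicate 3 of wild-type total RNA was the lowest array in each of these, by the most in the fatty acid arm. No test was made of a score over the members.

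Each route was also read through its neighbours. Of 12 other genes of sterol synthesis and uptake, 11 were tested, and in total RNA 3 rose, Ebp and Ggps1 among them, and 1 fell. Those shares were 27.3% and 9.1%, against 17.2% and 5.97% of all tested genes. Ebp, the sterol isomerase, rose in total RNA by 0.47 (SE 0.15, adjusted p = 0.045). Its polysomal level fell by 0.59 (SE 0.17, adjusted p = 0.040). The Ebp call in total RNA was lost in 5 of 6 fits, and that in polysomal RNA in 5 of 5, with 1 array of the comparison left out. Stard4, a sterol transfer protein, was the 1 gene of these that rose in polysomal RNA. It read 9.08 and 9.07 in wild-type and 9.94, 9.81 and 9.88 in knockout polysomal RNA, a rise of 0.80 (SE 0.13, adjusted p = 0.0041), against 0.25 (SE 0.11, adjusted p = 0.15) in total RNA.

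Among 19 other genes of fatty acid synthesis 13 were tested, of which 3 rose and 1 fell in total RNA. That was 23.1% and 7.7% of the 13, against 17.2% and 5.97% of all tested genes. In polysomal RNA none passed in limma and 2 had an unadjusted p under 0.05. Slc25a1, the mitochondrial citrate carrier that feeds Acly, rose by 1.08 in total RNA (SE 0.11, adjusted p = 4.6e-04) and differed by -0.03 in polysomal RNA (SE 0.12, adjusted p = 0.92). Tecr, the reductase of chain elongation, rose by 0.96 (SE 0.17, adjusted p = 0.0049), with -0.30 in polysomal RNA (SE 0.19, adjusted p = 0.34). Acsl3, an acyl-CoA synthetase of lipid droplets, fell by 0.58 in total RNA (SE 0.16, adjusted p = 0.026), a call lost without replicate 1 or 2 of either genotype's total RNA. Over the 13 genes the median total RNA difference was 0.25 and the median polysomal one -0.03.

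The 5 genes of SREBP control all had a tested probe set, and none passed in total RNA in limma, with 1 (Scap) at an unadjusted p under 0.05. Srebf1, the factor most tied to fatty acid synthesis, read 11.28, 11.42 and 11.42 in wild-type and 11.40, 11.43 and 11.32 in knockout total RNA. In polysomal RNA it read 12.53 and 12.59 in wild type and 12.07, 12.28 and 12.02 in knockout. Total RNA values were interleaved, and every knockout polysomal value lay below both wild-type ones. On polysomal arrays Srebf1 fell by 0.44 (SE 0.10, n = 2 and 3, adjusted p = 0.022), against 0.01 in total RNA (SE 0.09, adjusted p = 0.97). The polysomal call was lost without either wild-type array and without replicate 1 or 3 of knockout polysomal RNA, with adjusted p from 0.058 to 0.10. Its value then ran from -0.47 to -0.38. The interaction of -0.44 (SE 0.14, adjusted p = 0.047) was lost in 9 of 11 fits with an array left out, where adjusted p ran from 0.032 to 0.12.

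Srebf2, the factor most tied to sterol synthesis, read 7.56, 7.56 and 7.57 in wild-type and 7.58, 7.70 and 7.78 in knockout total RNA. It read 8.37 and 7.93 in wild-type and 8.01, 8.05 and 7.93 in knockout polysomal RNA. Neither difference passed, at 0.12 (SE 0.11, adjusted p = 0.49) and -0.16 (SE 0.13, adjusted p = 0.47). Scap, the escort of both factors, read 9.22, 9.27 and 9.19 in wild-type total RNA and 9.56, 9.56 and 9.47 in knockout total RNA. Its polysomal values were 9.92 and 9.99 in wild type and 9.56, 9.91 and 9.85 in knockout. The genotypes did not overlap in either RNA kind and were ordered oppositely. The Scap differences were 0.30 (SE 0.10, adjusted p = 0.059) in total and -0.18 (SE 0.11, adjusted p = 0.32) in polysomal RNA, and their interaction of -0.48 (SE 0.15, adjusted p = 0.047) was lost in 10 of 11 fits with an array left out (adjusted p 0.044 to 0.13). A knockout value of Scap was shared to the last digit by replicates 1 and 2 of total RNA and replicate 1 of polysomal RNA, and 8 of the 37 tested members had a value shared exactly by 2 or more arrays. Insig1 and Insig2, the sterol-sensing anchors, did not pass, at 0.55 (SE 0.29) and 0.23 (SE 0.11) in polysomal RNA.

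Sterol regulatory elements were looked for in the RefSeq promoters of build GRCm38.p6, taken from 250 bases before to 50 after each gene's start. Of the 47 genes 36 had a promoter there, with 51 windows. The motif TCACNCCAC, searched on both strands, was in a window of 388 of 27025 genes (1.44%) and of 2 of the 36 members (5.6%), Hmgcs1 and Pcyt1a. These stretches are shown because those were the only members with a match. The same 2 members had the most positive and the most negative interaction of the list, and a link between motif and interaction was not tested. Both run 5′ to 3′ along the plus strand with the matched bases in capitals, and each ends upstream of the start. For Hmgcs1, at chr13:119690164-119690272, the match begins 137 bases before the start, and for Pcyt1a, at chr16:32430755-32430863, it begins 116 bases before the nearer of its starts.
Hmgcs1: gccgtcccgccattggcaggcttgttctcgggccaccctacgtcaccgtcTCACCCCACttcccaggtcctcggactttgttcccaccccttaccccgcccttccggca
Pcyt1a: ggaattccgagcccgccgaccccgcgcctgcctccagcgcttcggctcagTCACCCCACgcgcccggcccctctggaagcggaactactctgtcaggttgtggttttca
The matched 9 letters, TCACCCCAC, were the same in both genes. The E-box CACGTG was in 8 of 36 members (22.2%), among them Dhcr7, Insig1, Plin2 and Scap, and in 8.09% of all genes. CCAAT was in 25 members (69.4%, against 41.1% of all genes) and the GC box GGGCGG in 30 (83.3%, against 38.2%). Each motif was searched on both strands, and a gene counted if any of its windows held it. A match is a description of these letters and not a measured binding site, and 11 members, Sqle, Scd1, Scd2 and Fads1 among them, had no promoter entry.

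Triglyceride is built by the acyltransferases and stored in droplets coated by the perilipins. Of 9 triglyceride and droplet members 8 had a probe set, Agpat2 had none here, and Gpam (2.10 to 2.25), Lipe (2.56 to 3.34) and Dgat2 (4.04 to 5.45) were too dim to test. Among the 5 tested genes 2 rose in total RNA, with a median of 0.48, and none passed in polysomal RNA in limma, with 0 of 5 at an unadjusted p under 0.05 and a median of -0.22. Of all tested genes 17.2% rose in total RNA, and 8.36% were higher and 6.77% lower in polysomal RNA. The all-gene medians were 0.09 and -0.01. The 5 polysomal differences ran from -0.30 to -0.05.

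Plin3, a coat protein of nascent droplets, read 5.73, 6.13 and 5.73 in wild-type and 6.70, 6.88 and 6.71 in knockout total RNA. It read 9.93 and 10.11 in wild-type and 9.42, 10.05 and 9.94 in knockout polysomal RNA. The polysomal arrays lay far above the total RNA arrays in both genotypes, and the genotypes separated in total RNA. Plin3 rose by 0.90 in total RNA (SE 0.17, adjusted p = 0.0067), a 1.86-fold difference. Its polysomal difference was -0.22 (SE 0.19, adjusted p = 0.50) and its interaction -1.12 (SE 0.26, adjusted p = 0.017). The interaction call was lost with the set letter as a block over both RNA kinds. Without replicate 2 of wild-type polysomal RNA the interaction was -1.03 (adjusted p = 0.063).

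Plin2, the main coat protein of droplets outside fat tissue, read 12.20, 12.34 and 12.21 in wild-type and 12.68, 12.86 and 12.58 in knockout total RNA. Its polysomal values were 14.27 and 14.11 in wild type and 14.06, 13.97 and 14.11 in knockout. Total RNA separated the genotypes and polysomal RNA did not. Plin2 rose by 0.46 in total RNA (SE 0.10, adjusted p = 0.011), with -0.14 in polysomal RNA (SE 0.11, adjusted p = 0.42). The interaction was -0.60 (SE 0.15, adjusted p = 0.021). Without replicate 1 of wild-type polysomal RNA it was -0.52 and the call was lost. The interaction call was also lost with the set letter as a block, both within RNA kind and over both kinds.

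Dgat1, which makes the final bond of triglyceride, read 7.26, 7.71 and 7.18 in wild-type and 7.67, 7.81 and 8.12 in knockout total RNA. In polysomal RNA it read 9.56 and 9.36 in wild type and 9.15, 9.18 and 9.15 in knockout. Total RNA values overlapped, and knockout polysomal values lay below wild type. The differences were 0.48 (SE 0.16, adjusted p = 0.052) and -0.30 (SE 0.17, adjusted p = 0.29). Their interaction of -0.78 (SE 0.23, adjusted p = 0.041) was lost in 9 of 11 fits with an array left out (adjusted p 0.012 to 0.12), and the total RNA difference passed at 0.65 (adjusted p = 0.013) without replicate 2 of wild-type total RNA. Pnpla2, the triglyceride lipase, differed by 0.54 (SE 0.17, adjusted p = 0.051) in total RNA without overlap, and Lpin1, the phosphatidate phosphatase, by 0.07 (SE 0.14).

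Among 21 other triglyceride and droplet genes 15 were tested, with 2 higher and 1 lower in total RNA and 4 lower in polysomal RNA. These shares were 13.3%, 6.7% and 26.7%, against 17.2%, 5.97% and 6.77% of all tested genes. Mgll, the monoglyceride lipase, rose by 0.85 in total RNA (SE 0.10, adjusted p = 0.001), with 7.47 to 7.64 in wild type and 8.21 to 8.49 in knockout. In polysomal RNA Lpin2, a relative of Lpin1, fell by 1.22 (SE 0.18, adjusted p = 0.0032), from 7.21 and 7.84 to between 6.12 and 6.43. Plin5, the droplet coat protein of oxidative tissue, fell there by 0.80 (SE 0.15, adjusted p = 0.0075). Plin5's polysomal call was lost without replicate 1 of wild-type polysomal RNA. Of 18 fatty acid oxidation genes, 14 of them tested, 3 rose in total RNA: Acadvl by 0.73 (SE 0.11, adjusted p = 0.0026), Echs1 by 1.29 (SE 0.25, adjusted p = 0.0067) and Acaa2 by 0.62 (SE 0.18, adjusted p = 0.033). The 3 made up 21.4% of the 14, near the 17.2% of all tested genes. The Acaa2 call was lost without replicate 1 of wild-type or any of the 3 knockout total arrays. In polysomal RNA none of the 14 passed in limma, and 4 were lower at an unadjusted p under 0.05.

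The 4 tested uptake genes had no genotype call in limma, and 0 of 4 had an unadjusted p under 0.05 in either RNA kind. Fabp5 had no probe set here. Lpl, the lipase that frees fatty acids from lipoproteins, differed by -0.11 (SE 0.12) in total and 0.27 (SE 0.14) in polysomal RNA. Cd36, a fatty acid translocase, differed by -0.05 (SE 0.12) and 0.23 (SE 0.13). Fabp4, a fatty acid carrier of endothelium, macrophages and fat cells, differed by -0.01 (SE 0.33) and 0.03 (SE 0.37), with values as far apart as 12.65 and 13.82 among the wild-type total arrays. Pparg, the nuclear receptor of fat storage and alveolar macrophages, differed by -0.35 (SE 0.28) and -0.58 (SE 0.31). For none of these 4 does the missed threshold show equal levels: the 95% intervals in total RNA ran from -0.39 to 0.16 for Lpl and from -0.98 to 0.28 for Pparg.

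Among 14 other uptake genes, of which 11 were tested, Lrp1, a receptor of lipoprotein remnants, rose by 1.03 in total RNA (SE 0.14, adjusted p = 0.0019) and Fabp1, a fatty acid carrier, fell by 0.99 (SE 0.16, adjusted p = 0.0033). In polysomal RNA 4 of the 11 fell, among them Ffar4, a receptor for long-chain fatty acids, by 0.80 (SE 0.14, adjusted p = 0.0063). That was 36.4%, against 6.77% of all tested genes. Of 13 genes of sterol export and the LXR receptors 11 were tested, with 2 higher in total RNA and none called in polysomal RNA in limma (3 at an unadjusted p under 0.05). The 2 were 18.2% of those tested, near the 17.2% of all tested genes. Apoe, the lipoprotein component, rose by 1.25 in total RNA (SE 0.27, adjusted p = 0.0099) and differed by -0.91 in polysomal RNA (SE 0.30, adjusted p = 0.066), an interaction of -2.17 (SE 0.40, adjusted p = 0.0076). Nr1h2, an LXR receptor, rose by 0.77 (SE 0.20, adjusted p = 0.023), a call lost without replicate 1 or 3 of knockout or replicate 1 of wild-type total RNA. Npc1, the lysosomal cholesterol exporter, passed in the interaction alone at -0.93 (SE 0.24, adjusted p = 0.025), a call lost in 5 of 11 fits with an array left out.

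Surfactant lipid synthesis held the member with the smallest p. Pcyt1a encodes the enzyme that limits the making of phosphatidylcholine from choline. It read 4.50, 4.17 and 4.42 in wild-type and 5.41, 5.82 and 5.81 in knockout total RNA, and 8.43 and 8.47 in wild-type and 8.41, 8.53 and 8.88 in knockout polysomal RNA. All wild-type total arrays were under the level of 5 required for testing, and the knockout ones above it, while both polysomal groups were much higher and overlapped. Pcyt1a rose by 1.32 in total RNA (SE 0.16, n = 3 and 3, adjusted p = 9.6e-04), a 2.49-fold difference, with 0.15 in polysomal RNA (SE 0.17, adjusted p = 0.61). The interaction was -1.16 (SE 0.23, adjusted p = 0.010). Both calls held with each array left out, at 1.22 to 1.45 and -1.30 to -1.06. Within set letter A, with 2 wild-type arrays and 1 knockout array, the total RNA difference was 1.07. Within letter B, with 1 wild-type array and 2 knockout arrays, it was 1.39.

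Lpcat1, which remodels surfactant phosphatidylcholine, read 12.85, 12.85 and 13.25 in wild-type and 13.34, 13.49 and 13.49 in knockout total RNA. It read 13.60 and 13.57 in wild-type and 13.70, 13.68 and 13.60 in knockout polysomal RNA. Replicate 3 was the highest of the wild-type total arrays, the reverse of its place for Fasn. Lpcat1 rose by 0.45 in total RNA (SE 0.11, adjusted p = 0.020), with 0.08 in polysomal RNA (SE 0.13, adjusted p = 0.74). The call was lost without replicate 1 (0.39, adjusted p = 0.076) or 2 (0.39, adjusted p = 0.059) of wild-type and replicate 2 (0.43, adjusted p = 0.073) or 3 (0.43, adjusted p = 0.062) of knockout total RNA. It was also lost under quantile normalization (0.34, adjusted p = 0.12) and equal array medians (0.35, adjusted p = 0.070). Without replicate 3 of wild-type total RNA its interaction passed at -0.51 (adjusted p = 0.015). Chka, the choline kinase before Pcyt1a, differed by 0.43 (SE 0.21, adjusted p = 0.17) in total RNA, and Acsl4, an arachidonate-preferring acyl-CoA synthetase, by -0.30 (SE 0.12, adjusted p = 0.10). Of 15 other phospholipid genes 10 were tested and 2 rose in total RNA: Abca3, the lamellar body lipid pump, by 0.39 (SE 0.10, adjusted p = 0.021) and Lpcat3, a remodelling enzyme, by 0.60 (SE 0.18, adjusted p = 0.041). They were 20% of those tested, near the 17.2% of all tested genes. The Abca3 call was lost in 3 and the Lpcat3 call in 5 of the 6 fits without 1 of the total RNA arrays.

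**Figure D3:**
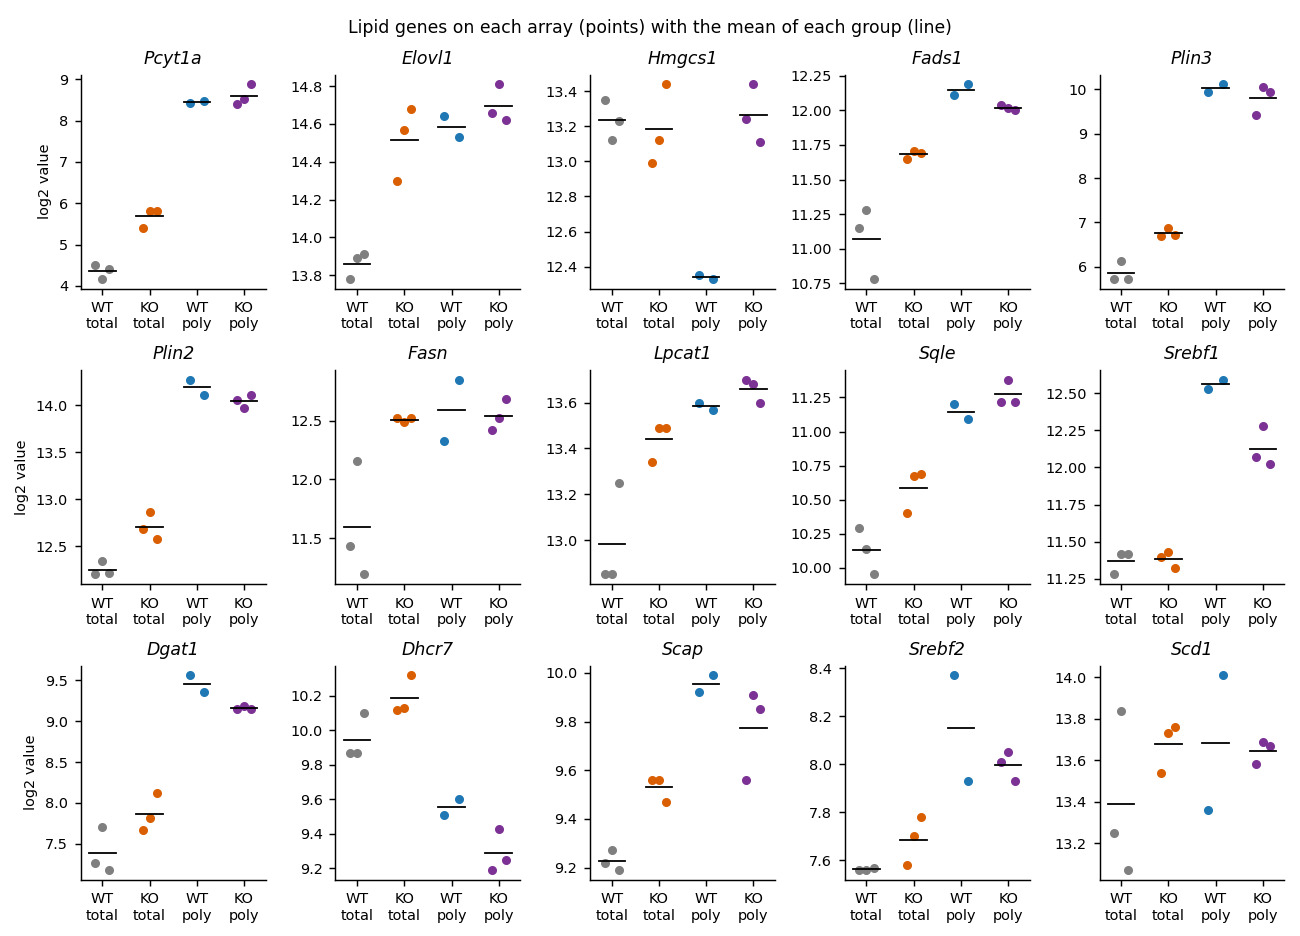
Log2 values of 15 lipid genes on each of 11 arrays, with a line at the mean of each group (WT, wild type; KO, knockout; poly, polysomal RNA); each panel has its own scale. Knockout total values sit above wild-type total values without overlap for the called genes Pcyt1a, Elovl1, Fads1, Plin3, Plin2, Fasn, Lpcat1 and Sqle. The same holds for Dhcr7, Scap and Srebf2, which had no call in total RNA. Of the 15 genes 13 passed a genotype contrast on these arrays, so separation is no further result for them. The share of all tested genes without overlap is not given here. Only Hmgcs1 has both wild-type polysomal values below all other arrays.

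The level of a message in polysomal against total RNA was compared within each genotype. All arrays were summarised on a common scale, so this difference is relative to other messages and is no share of a message's molecules. In wild type 22 of 37 members were higher and 3 lower in polysomal RNA, where 44.5% of all tested genes were higher and 27.9% lower. In knockout 22 were higher and 4 lower, against 39.5% and 25.7%. Mvd, which passed the filter through the polysomal arrays alone, is among the higher members in both genotypes. The median of the members was 0.72 in wild type and 0.36 in knockout, against 0.22 and 0.13 over all genes. These comparisons share their arrays with the genotype comparisons and are given as values only.

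Plin3, Pcyt1a and Mvd had the widest gaps in both genotypes. Plin3 was higher in polysomal RNA by 4.16 in wild type (SE 0.19, adjusted p = 1.0e-07) and by 3.04 in knockout (SE 0.17, adjusted p = 5.4e-07). Pcyt1a was higher by 4.09 (SE 0.17, adjusted p = 6.1e-08) and 2.93 (SE 0.16, adjusted p = 3.8e-07). Its wild-type total values, 4.17 to 4.50, were under the level of 5 required for testing, so the wild-type gap rests on dim total RNA values. Mvd was higher by 2.71 (SE 0.28) and 2.96 (SE 0.25), from total RNA values near the dim level. In the fatty acid arm Scd2 led with 2.12 (SE 0.22) and 1.62 (SE 0.20), while Fasn was higher by 0.99 in wild type (SE 0.25, adjusted p = 0.0051) and differed by 0.04 in knockout (SE 0.23, adjusted p = 0.90). The Fasn call in wild type was lost without replicate 2 of wild-type polysomal RNA (0.73, adjusted p = 0.062).

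Few members ran the other way. Those lower in wild-type polysomal RNA were Hmgcs1, Dhcr7 (-0.39, SE 0.12, adjusted p = 0.012) and Insig2 (-0.99, SE 0.11, adjusted p = 2.7e-05). Those lower in knockout were Dhcr7 (-0.90, SE 0.10, adjusted p = 4.4e-05), Insig2 (-0.68, SE 0.10, adjusted p = 2.3e-04), Nsdhl (-0.44, SE 0.12, adjusted p = 0.0092) and Elovl6 (-1.29, SE 0.49, adjusted p = 0.041). The Dhcr7 call in wild type was lost without replicate 1 of wild-type polysomal RNA (-0.35, adjusted p = 0.073). The sterol arm held 2 of the 3 members lower in wild type. That was 18.2% of its 11 tested genes, a smaller share than the 27.9% of all tested genes. Its median difference was 0.36 in each genotype. The fatty acid arm's median was 0.51 in wild type and 0.19 in knockout. Quantile normalization moved these fatty acid medians to 0.05 and -0.11.

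Whole-series facts bear on these values as follows. The targeted genes followed the labels: Eif4ebp2 read 4.50, 5.49 and 4.67 in wild-type and 2.61, 3.10 and 3.26 in knockout total RNA, and 5.76 and 6.09 against 3.90, 3.92 and 3.75 in polysomal RNA. Eif4ebp1 read 8.25, 8.54 and 8.20 against 7.94, 7.92 and 7.93, and 7.78 and 7.93 against 7.36, 7.05 and 7.15. Whether its probes lie in the deleted part is not in the sources used here. The lung markers Sftpc, Scgb1a1 and Ager read 13.89 to 16.53, while Nkx2-1 was too dim to test. Foxj1, the factor of ciliated cells, read 6.47 to 7.05 in total RNA and fell in polysomal RNA by 1.27 (SE 0.18, adjusted p = 0.0026). Rescaling mattered for the genotype comparison in total RNA, where the all-gene median moved from 0.09 to -0.01 with equal array medians, and the share of higher among all called genes from 74.3% to 55.2%. The members' count went to 7 higher and 1 lower with equal medians and to 8 higher and 1 lower with quantile normalization. Equal medians and quantile normalization each ended the interaction calls of Elovl1, Dhcr7, Scap and Srebf1, leaving 5 negative ones. With only the arrays compared in the fit, the total RNA calls of Fasn (adjusted p = 0.053), Sqle (0.058) and Lpcat1 (0.065) and the polysomal call of Srebf1 (0.082) were lost.

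Replicate 3 of wild-type total RNA stood apart. Sftpc, the surfactant protein of alveolar type 2 cells, read 13.89 there against 15.59 and 15.82 on the other wild-type total arrays and 16.12 to 16.13 on the knockout ones. It was also the lowest of the total RNA arrays for Fasn, Scd2 and Elovl6. Without it 10 members passed as higher and 2 as lower in total RNA. Fasn then differed by 0.72 (SE 0.22, adjusted p = 0.040), Fads1 by 0.47 (SE 0.08, adjusted p = 0.0044) and Sqle by 0.37 (SE 0.11, adjusted p = 0.044). In whole lung, fewer cells of a type and less RNA per cell cannot be told apart.

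**Figure D4:**
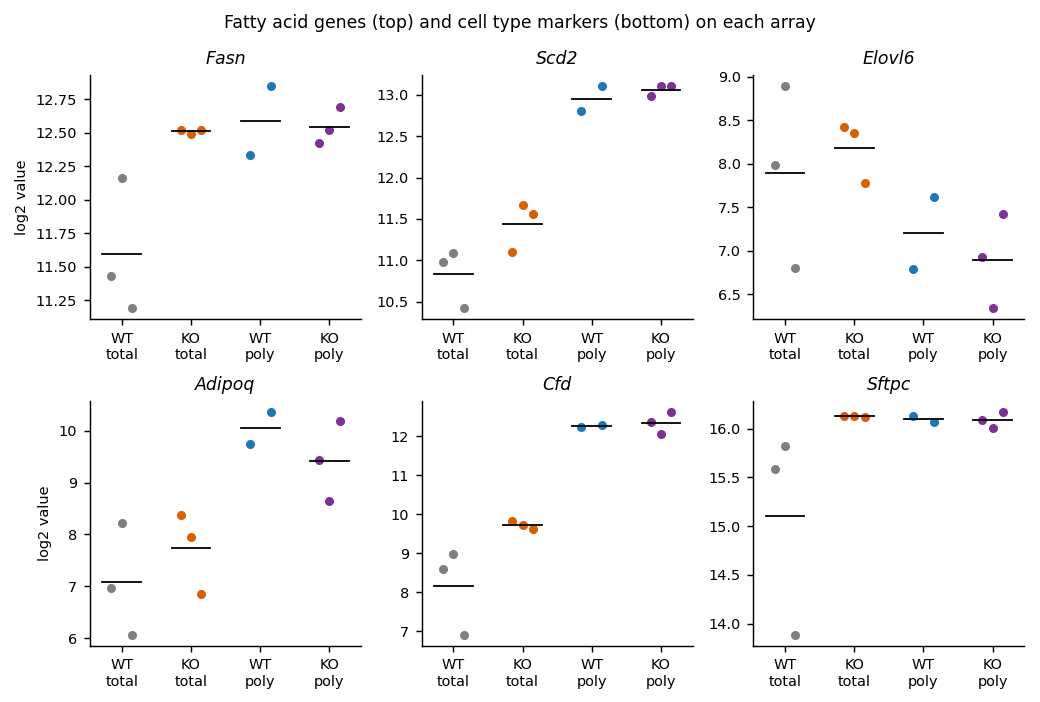
Log2 values of Fasn, Scd2 and Elovl6 (top) and of the adipocyte markers Adipoq and Cfd and the alveolar type 2 marker Sftpc (bottom) on each of 11 arrays, with group means as lines. Among the wild-type total arrays the third replicate is lowest in all 6 panels, and Adipoq differs between arrays of a group by more than 1 log2 unit in 3 of the 4 groups.

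Markers of cell types rich in lipid were read beside these genes. Of 8 adipocyte markers 7 had a probe set and 3 were tested, Retn, Lep, Aqp7 and Lipe being too dim. The mean of Adipoq, Cfd and Cidec was 6.53, 7.13 and 5.67 in wild-type and 7.43, 7.29 and 6.88 in knockout total RNA, and 9.82 and 10.51 in wild-type and 9.74, 9.23 and 10.36 in knockout polysomal RNA. Cfd rose by 1.56 in total RNA (SE 0.43, adjusted p = 0.028), and Adipoq differed by 0.65 (SE 0.59, adjusted p = 0.47). Of 8 tested alveolar type 2 markers 3 rose in total RNA, and in polysomal RNA none passed in limma and 0 had an unadjusted p under 0.05. Endothelial markers rose in 6 of 10 cases in total RNA, with a median of 0.77. In polysomal RNA none of the 10 passed as higher in limma, with 1 at an unadjusted p under 0.05. There 1 passed as lower, and the median was -0.14. Alveolar macrophage markers fell in 4 and rose in 2 of 7 cases in total RNA, and 3 fell in polysomal RNA. Over all tested genes 17.2% were higher and 5.97% lower in total RNA, and 8.36% and 6.77% in polysomal RNA. Of 4 tested lipofibroblast markers the one higher in total RNA was Plin2, itself a member, and Limch1 was higher in polysomal RNA by 0.29 (SE 0.09, adjusted p = 0.050, under the threshold before rounding). Of 7 tested heart muscle markers 3 rose in total and 1 in polysomal RNA. Of 6 liver markers only Cyp2e1 was bright enough to test, and it had no call. Their part in the differences of the lipid genes was not tested.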

How the data were processed

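Gene expression was measured on 11 one-colour arrays of mouse lung RNA. The deposited values are log2 values per probe set and array, made by the authors with GCRMA per the submitters' processing notes (background correction, normalization and probe summary). No version of it is given in the sources here. The values, from 0.73 to 16.7, fit a log2 scale. Probe set names are RefSeq accessions. Of 26180 probe sets 15228 matched 1 gene in the RefSeq table of GRCm38.p6, 10952 matched none and 7538 were exact repeats.

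A probe set was tested with a log2 value of at least 5 on at least 2 arrays, which kept 13802, 5272 of them unnamed. The model, in limma 3.58.1 (R 4.3.3), had a mean for each of the groups and used every array (lmFit, eBayes, two-sided tests, 7 residual degrees of freedom, prior 2.67), with Benjamini-Hochberg adjustment and a threshold of 0.05. The contrasts were knockout minus wild type in each RNA kind, their difference (the interaction) and polysomal minus total RNA in each genotype. The number of arrays limits the precision.

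The members and lists were chosen with earlier results of these data known. Members passing in a genotype contrast (13), with Srebf2 and Scd1, are given in full, and up to 3 passing genes from each other list. A few genes of the sterol list are counted there but not reported singly here. Promoters came from RefSeq. Alternatives were other filters, a trend, other scalings, set letter blocks, fits of the compared groups alone, other probe set choices, a threshold of 0.01 and leaving out each array. The fit was tested on simulated data. Of changes of 0.5 log2, 14% were recovered in total RNA and 30% in polysomal RNA. Of changes of 1 log2, 84% and 76% were recovered. A missed call therefore says little about a change of 0.5 log2. In each simulation only a small part of the 8085 genes was changed, whereas 1876 were called in total RNA in the data. The adjusted p depends on how many genes change, so the recovered shares need not hold for these data. Plots used Python 3.11.15 and matplotlib 3.10.9.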

Additional observations from a re-analysis of the deposited data

Results flagged for a closer look

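For 10 genes the knockout difference in polysomal RNA differed from that in total RNA by limma's test of the difference itself, with adjusted p under 0.05. Hmgcs1 was positive at 0.98 (SE 0.20, adjusted p = 0.011). The others were negative: Pcyt1a at -1.16 (SE 0.23, adjusted p = 0.010), Plin3 at -1.12 (SE 0.26, adjusted p = 0.017), Dgat1 at -0.78 (SE 0.23, adjusted p = 0.041), Fads1 at -0.74 (SE 0.18, adjusted p = 0.019), Plin2 at -0.60 (SE 0.15, adjusted p = 0.021), Elovl1 at -0.54 (SE 0.17, adjusted p = 0.043), Dhcr7 at -0.51 (SE 0.16, adjusted p = 0.046), Scap at -0.48 (SE 0.15, adjusted p = 0.047) and Srebf1 at -0.44 (SE 0.14, adjusted p = 0.047). Groups of 2 and 3 arrays are too small for a test of single outlying arrays.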

How the results depend on the processing

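No member's called difference changed sign under any alternative run. In total RNA the 8 higher members became 4 at an adjusted p under 0.01, 12 with no filter and 11 with the stricter filter, and ran from 5 to 10 with 1 array left out. No member was called lower there, against 1 with no filter, with quantile normalization and with equal array medians, and 0 to 2 with 1 array left out. In polysomal RNA the 1 higher member became 2 with the set letter within RNA kind as a block and ran from 1 to 3 with 1 array left out. The 1 lower member became 0 at 0.01, with quantile normalization, with that block and with the compared groups alone, became 2 with equal medians, ran from 0 to 1 with 1 polysomal array left out, and was 2 without replicate 2 or 3 of wild-type total RNA. For the interaction, the 1 positive call became 0 at 0.01 and ran from 1 to 2 with 1 array left out. The 9 negative calls became 0 at 0.01, 5 with quantile normalization or equal medians, 3 with the block within RNA kind and 4 with the block over both kinds, and ran from 2 to 9 with 1 array left out. Between polysomal and total RNA, the 3 lower members in wild type became 5 with quantile normalization, and the 22 higher in knockout became 14 at 0.01.

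Arm medians moved too. In total RNA the fatty acid median of 0.45 ran from 0.27 to 0.69 with 1 array left out. The interaction medians ran from -0.26 to 0.02 (sterol, -0.03 with all arrays) and from -0.65 to -0.23 (fatty acid, -0.52). For polysomal minus total RNA in wild type, the sterol median of 0.36 became 0.20 with quantile normalization, 0.25 with equal medians and 0.22 with no filter, and ran from 0.18 to 0.54 with 1 array left out. The fatty acid median of 0.51 became 0.05 with quantile normalization and 0.30 with no filter. In knockout the sterol median of 0.36 became 0.22 with no filter and ran from 0.28 to 0.47 with 1 array left out, and the fatty acid median of 0.19 became -0.11 with quantile normalization. The cause was not tested for any of these.

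Arrays of 1 RNA kind with the same set letter had correlated deviations of -0.05 to 0.12 (6 pairs), against -0.12 to 0.05 for different letters (9 pairs). Across RNA kinds the ranges were -0.17 to 0.32 (9 pairs) and -0.21 to 0.30 (21 pairs). The deviations of the 2 wild-type polysomal arrays mirror each other, with 0.12 and -0.12 against replicate 2 of knockout polysomal RNA. For polysomal RNA this comparison thus cannot decide whether the letters pair the arrays. The main fit did not use the letters. With the letter as a block within RNA kind or over both kinds, the interaction calls of Elovl1, Dhcr7, Scap, Srebf1, Dgat1 and Plin2 and the total RNA call of Sqle were lost under both blocks, Plin3's interaction under the block over both kinds, and Srebf1's polysomal call and the wild-type polysomal minus total calls of Fasn, Dhcr7 and Scap under the block within kind. Over all genes the share of higher among called genes in total RNA was 74.3%, 60.6% with quantile normalization, 55.2% with equal medians and 37.0% with no filter. In polysomal RNA it was 55.3%, and 45.1% with equal medians. With groups of 2 and 3 arrays, and with Mvd near the dim level in total RNA, its sizes are poorly fixed.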

Other observations

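Outside the members, negative interactions were counted in other lists as values. They were found for 5 of 11 tested genes of lipid uptake, 4 of 14 of fatty acid oxidation, 3 of 11 of sterol export and the LXR receptors, 3 of 15 of other triglyceride and droplet genes, 2 of 11 of other sterol synthesis, 2 of 13 of other fatty acid synthesis and 0 of 10 of other phospholipid genes (in limma, with 2 negative at an unadjusted p under 0.05), against 14.2% of all tested genes. Among endothelial markers they were found for 6 of 10. Acadvl, an enzyme of very long chain oxidation, had -0.88 (SE 0.16, adjusted p = 0.0081), and Lrp1, a lipoprotein receptor, -1.49 (SE 0.21, adjusted p = 0.0040). Stard4 had the positive interaction of the sterol neighbours at 0.55 (SE 0.17, adjusted p = 0.046), a call lost in 10 of 11 fits with an array left out.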
